A study of Mus musculus with 12 samples.

Results

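Mouse embryonic stem cells hold a small fraction of cells that switch, for a time, to a gene programme of the 2-cell embryo. The genes described here are 10 protein-coding genes that mark these 2-cell-like cells and that, for the most part, have no near-identical copy elsewhere in the genome: Dcc, Rdh1, Tmem92, Spz1, Arg2, Mecom, Tacr3, Popdc3, Slfn2 and Spesp1. They are 10 of the 38071 genes with counts in the series, and they were chosen by their high level in the tbGFP-positive cells of these same libraries. Their height in that fraction is therefore a description and carries no test. All 10 passed the filter on low counts (10 or more in 2 or more libraries), which 19384 genes passed, but genes with levels this high in 1 fraction could hardly fail it.

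The cells were E14, an established mouse embryonic stem cell line, of the genotype 2C::3xtbGFP, a turboGFP reporter of the 2-cell state that all groups carried. The labels do not name the reporter's promoter or say whether the line was 1 clone. All cells were plated without the kinase inhibitors CHIR99021 and PD0325901, and collected after 48 h of culture and 0, 6 or 24 h of sorbitol. Sorbitol is a sugar alcohol used to raise the osmolarity of the medium. FACS then split the cells into a tbGFP-positive and a tbGFP-negative fraction. Each of the 6 groups (2 fractions at 3 times) has 2 RNA-seq libraries of 50000 sorted cells, with 2306870 to 7900178 counts per library. The labels do not state whether the 48 h include the time in sorbitol, and so not whether time in culture differed between the groups. The sort came after the treatment, so a fraction at 24 h need not descend from the same fraction at 0 h. Nothing in the labels states that the 2 libraries of a group came from separate cultures, so the spread behind the p-values is that between these samples and may be technical.

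The 2-cell programme is known to be switched on by the transcription factor Dux and to include large families of near-identical genes, such as Zscan4, and transcripts that start in long terminal repeats of the MERVL endogenous retrovirus. Reads from such families are hard to assign to a gene, so genes with a sequence of their own give a reading of the same state that does not rest on shared reads. The 10 genes are best known from other tissues. Dcc is a netrin receptor that guides axons, and Tacr3 is the receptor of the neuropeptide neurokinin B. Tmem92 is a predicted membrane protein, and Popdc3 is a Popeye-domain membrane protein of muscle that binds cAMP. Rdh1 is a retinol dehydrogenase, which oxidises vitamin A, and Arg2 is the mitochondrial arginase. Mecom encodes zinc finger transcription factors needed in blood stem cells, and Spz1 is a transcription factor of sperm development. Spesp1 is a protein of the sperm head that takes part in fusion with the egg, and Slfn2 is a Schlafen protein that helps keep T cells quiescent.

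Levels are given as CPM, counts scaled to library size with TMM factors. Before sorbitol, the genes were at 74.1 to 979 CPM in the tbGFP-positive libraries and at 0 to 3.72 CPM in the tbGFP-negative ones. Spesp1 was the highest, at 979 and 920 CPM in the positive libraries, and Slfn2 the lowest, at 126 and 74.1 CPM. Dcc, Rdh1, Spz1 and Tacr3 had no count in either tbGFP-negative library at 0 h. Taking 3 counts in the whole group as the floor, Rdh1 was at least 1720-fold higher in the positive fraction, Dcc at least 1390-fold, Spz1 at least 650-fold and Tacr3 at least 602-fold. Tmem92 had 2 counts in the negative cells, for a ratio of 2090 (95% counting interval 579 to 17300), and Popdc3 had 2, a ratio of 871 (241 to 7200). The smallest ratio of means was that of Slfn2, at 207. In all 10 genes the 2 fractions did not overlap, which also held, in this direction, for 24.7% of all genes tested at 0 h, 19.4% at 6 h and 25.1% at 24 h. These ratios were what the choice of genes used, and nothing is read from them. In bulk samples, fewer cells of a type and less RNA per cell cannot be told apart.

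**Figure D1:**
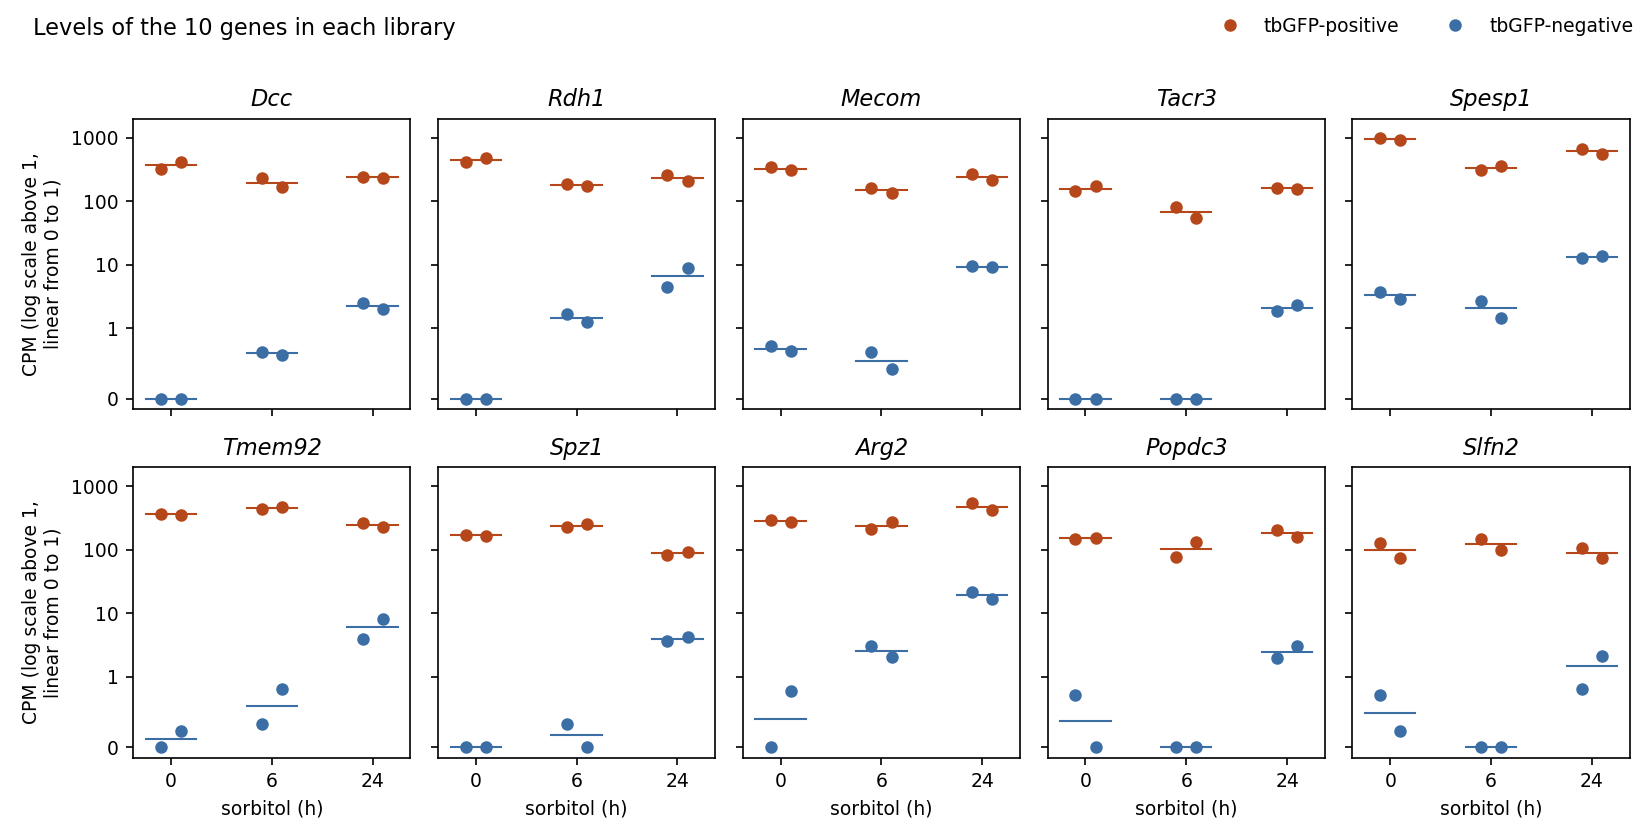
CPM of the 10 genes in each of the 12 libraries, by hours of sorbitol (x axis) and sorted fraction (orange, tbGFP-positive; blue, tbGFP-negative); each point is 1 library and each line the mean of 2, on an axis that is linear from 0 to 1 CPM and logarithmic above. The positive libraries stay between 54.6 and 979 CPM at all times, while the negative libraries of all 10 genes lie highest at 24 h.

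Summed over the 10 genes, the tbGFP-positive libraries held 3330 and 3320 CPM at 0 h, 2070 and 2120 CPM at 6 h, and 2810 and 2340 CPM at 24 h. The tbGFP-negative libraries held 5.95 and 4.75 CPM, then 9.36 and 6.63 CPM, then 62.9 and 70.5 CPM. The sum was thus lowest at 6 h in the sorted positive cells and highest at 24 h in the sorted negative cells, with no overlap between these libraries and those of the other times of the same fraction. Change with time inside a fraction was not used to choose the genes. It was tested with edgeR's quasi-likelihood test over all 19384 genes, with Benjamini-Hochberg adjustment and a threshold of 0.05.

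In tbGFP-positive cells, 5 of the 10 genes (Dcc, Rdh1, Mecom, Tacr3 and Spesp1) were lower at 6 h than at 0 h and none was higher. Over all genes tested, 3.76% were called lower and 2.14% higher. The median log2 fold change of the 10 was -0.72, against -0.05 over all genes. From 6 h to 24 h, 4 genes were higher (Arg2, Mecom, Tacr3 and Spesp1) and 2 lower (Tmem92 and Spz1), with 5.89% and 2.9% of all genes called in these directions and medians of 0.54 and 0.13. Mecom, Tacr3 and Spesp1 were therefore called in both steps, lower and then higher. At 24 h against 0 h none of the 10 was called by edgeR, with 0.304% of all genes called higher and 0.248% lower, but 7 had an unadjusted p below 0.05, as did 9.67% of all genes. DESeq2 called Arg2 higher and Rdh1, Spz1 and Spesp1 lower there, with 2.12% of the genes it tested called higher and 3.04% lower. The 3 comparisons share libraries and are not independent of each other.

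**Figure D2:**
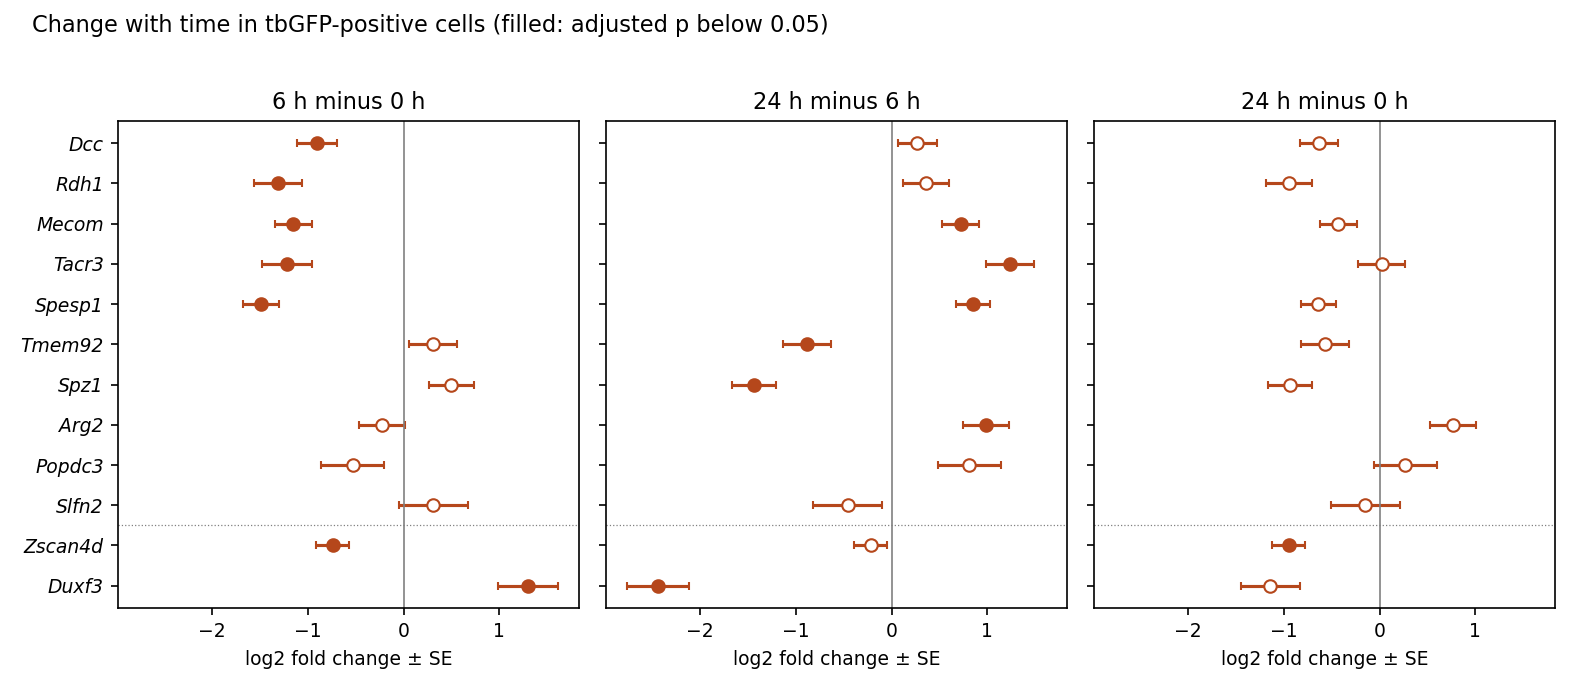
Log2 fold change with its SE in tbGFP-positive cells for 6 h against 0 h, 24 h against 6 h and 24 h against 0 h, for the 10 genes and, below the dotted line, Zscan4d and Duxf3 (Dux); filled points have an adjusted p below 0.05. The 5 filled points of the 10 genes at 6 h against 0 h all lie below 0. Zscan4d is also filled below 0 there, and Duxf3 above 0. From 6 h to 24 h, Tmem92, Spz1 and Duxf3 are the filled points below 0.

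Among the receptors and membrane proteins, Dcc (ENSMUSG00000060534.16, chromosome 18) was at 324 and 413 CPM at 0 h, 229 and 166 CPM at 6 h, and 245 and 231 CPM at 24 h in tbGFP-positive cells. Both later groups lay below both 0 h libraries, and the fall to 6 h passed the test (-0.90 ± 0.21, adjusted p = 0.0242), while 24 h against 0 h did not (-0.63 ± 0.20, adjusted p = 0.27). Tacr3 (ENSMUSG00000028172.5, chromosome 3, 134829007 to 134934579) was at 143 and 174 CPM, then 82.4 and 54.6 CPM, then 164 and 158 CPM. Its 6 h libraries stood below all the others, and it fell to 6 h (-1.22 ± 0.26, adjusted p = 0.0184) and rose from 6 h to 24 h (1.24 ± 0.25, adjusted p = 0.013). At 24 h the neurokinin receptor gene lay within the range of 0 h (0.02 ± 0.25). That value had the opposite sign with DESeq2's size factors and in most other alternatives, always close to 0.

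Tmem92 (ENSMUSG00000075610.9, chromosome 11, 94777217 to 94782703) went another way, at 371 and 353 CPM at 0 h, 433 and 465 CPM at 6 h, and 264 and 225 CPM at 24 h. Its 6 h libraries were the highest, though the step from 0 h did not pass (0.31 ± 0.25, adjusted p = 0.467), and it fell from 6 h to 24 h (-0.88 ± 0.25, adjusted p = 0.0419). That call was lost in 11 of 20 alternatives. Popdc3 (ENSMUSG00000019848.14, chromosome 10, 45178098 to 45318452) was at 150 and 152 CPM, 76.7 and 131 CPM, and 204 and 161 CPM. The 6 h libraries of this cAMP-binding protein's gene were again the lowest, but neither step passed (-0.53 ± 0.33, adjusted p = 0.342, and 0.81 ± 0.33, adjusted p = 0.136).

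Of the enzymes, Rdh1 (ENSMUSG00000089789.1, chromosome 10, 127759721 to 127768297) was at 423 and 481 CPM at 0 h, 189 and 176 CPM at 6 h, and 263 and 205 CPM at 24 h. The retinol dehydrogenase gene fell to 6 h (-1.31 ± 0.25, adjusted p = 0.00984). At 24 h both libraries were still under those of 0 h, a difference that did not pass (-0.95 ± 0.24, adjusted p = 0.132). Arg2 (ENSMUSG00000021125.6, chromosome 12, 79130777 to 79156301) was at 296 and 270 CPM, 210 and 273 CPM, and 544 and 420 CPM. The arginase gene overlapped between 0 h and 6 h (-0.23 ± 0.24, adjusted p = 0.607) and rose from 6 h to 24 h (0.99 ± 0.24, adjusted p = 0.0233). It had the largest positive fold change of the 10 at 24 h against 0 h (0.77 ± 0.24, adjusted p = 0.246).

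In both steps the means of the pair of transcription factor genes moved in opposite ways in tbGFP-positive cells. At 24 h against 0 h both lay lower, though edgeR called neither. The values were -0.43 ± 0.19 for Mecom (adjusted p = 0.486) and -0.94 ± 0.23 for Spz1 (adjusted p = 0.115). Mecom (ENSMUSG00000027684.16, chromosome 3, 29951296 to 30548008) was at 341 and 314 CPM at 0 h, 164 and 133 CPM at 6 h, and 273 and 214 CPM at 24 h. It fell to 6 h (-1.15 ± 0.19, adjusted p = 0.00441) and rose from there to 24 h (0.72 ± 0.19, adjusted p = 0.0334), and all 3 groups stood apart. Spz1 (ENSMUSG00000046957.5, chromosome 13, 92574636 to 92576172) was at 172 and 166 CPM, 225 and 253 CPM, and 83.6 and 92.6 CPM. The 3 groups of this sperm development gene also stood apart, with 6 h the highest, where the step from 0 h did not pass (0.50 ± 0.23, adjusted p = 0.195). It fell from 6 h to 24 h (-1.44 ± 0.23, adjusted p = 0.00331).

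Spesp1 (ENSMUSG00000046846.4, chromosome 9, 62270729 to 62282208), the sperm head gene, was at 979 and 920 CPM at 0 h, 309 and 366 CPM at 6 h, and 662 and 557 CPM at 24 h. Its groups did not overlap, and it had the largest fall to 6 h among the 10 (-1.49 ± 0.19, adjusted p = 0.000685), followed by a rise to 24 h (0.85 ± 0.18, adjusted p = 0.013). The fall to 6 h of Spesp1 kept its call in all 20 alternatives, with adjusted p up to 0.0283. Slfn2 (ENSMUSG00000072620.3, chromosome 11, 83065112 to 83070678) was at 126 and 74.1 CPM, 150 and 99.8 CPM, and 106 and 74.8 CPM. The libraries of this Schlafen gene overlapped between all times and no step passed (adjusted p = 0.633 for 6 h against 0 h).

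Several library facts lie beside these changes, and their part in them was not tested. Gene detection was lowest in the tbGFP-positive libraries at 6 h: thinned to 2305061 counts, they would show 17049 and 16520 genes, and replicate 2 of the positive cells at 0 h 17651, against 18674 to 22870 in the other 9. Without that 0 h library, 2 of the 5 falls to 6 h (Mecom and Spesp1) passed, and without replicate 1 of the positive cells at 24 h none of the 6 changes from 6 h to 24 h did. Without the positive libraries at 6 h, which take no part in 24 h against 0 h but add to the shared spread, Arg2 was called higher (0.72 ± 0.19) and Dcc (-0.68 ± 0.17), Rdh1 (-0.99 ± 0.21), Spz1 (-0.99 ± 0.21) and Spesp1 (-0.69 ± 0.15) lower at 24 h.

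Other 2-cell genes gave a point of reference in the same cells. Dux, annotated as Duxf3, was at 99 ± 28.9 CPM (SD, n = 2) at 0 h, 243 ± 88.5 CPM at 6 h and 45 ± 4.33 CPM at 24 h in tbGFP-positive cells. It rose to 6 h (1.30 ± 0.31, adjusted p = 0.0254) and fell from 6 h to 24 h (-2.44 ± 0.32, adjusted p = 0.000889). Its order of times, 6 h above 0 h above 24 h, was also that of the group means of Tmem92, Spz1 and Slfn2. Zscan4d, of the multi-copy Zscan4 family, was lower at 6 h (-0.74 ± 0.17, adjusted p = 0.0232) and at 24 h (-0.95 ± 0.17, adjusted p = 0.0207) than at 0 h. Of 35 tested genes of multi-copy 2-cell families, 2 were higher and 3 lower at 6 h, with a median of 0.19. Of 7 other 2-cell genes with few copies, none was higher and 1 lower, with a median of -0.49.

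In tbGFP-negative cells 9 of the 10 genes rose by 24 h. At 6 h against 0 h, 3 were higher (Dcc, Rdh1 and Arg2) and none lower, with 3.22% of all genes called higher and 1.21% lower. At 24 h against 0 h, 9 were higher, all but Slfn2, with 2.7% of all genes called higher and 1.29% lower. The 2 libraries at 24 h lay above both of 0 h in all 10 genes, as they did in 36.8% of all genes. The median log2 fold change was 4.97, or 3.67 with genes without counts at their bounds, against 0.23 over all genes. From 6 h to 24 h all 10 were higher, with 3.62% of all genes called higher and 4.3% lower, and a median of 3.70 (2.89 with bounds) against 0.16.

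Arg2 reached the highest level of the 10 in tbGFP-negative cells. The arginase gene was at 0 and 0.792 CPM at 0 h, 3.01 and 2.07 CPM at 6 h, and 21.5 and 16.8 CPM at 24 h, with no overlap between times. It rose by 6 h (2.09 ± 0.54, adjusted p = 0.0388) and further by 24 h (4.98 ± 0.42 against 0 h, adjusted p = 4.36e-06). The 6 h call was lost in 15 of 21 alternatives and the 24 h call in none. Rdh1 had no count at 0 h, 1.67 and 1.24 CPM at 6 h, and 4.53 and 8.97 CPM at 24 h. Against the floor of 3 counts, the retinol dehydrogenase gene was at least 5.69-fold higher at 6 h (adjusted p = 0.00809) and at least 25.1-fold at 24 h (adjusted p = 4.02e-05).

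Dcc likewise had no count at 0 h, then 0.668 and 0.622 CPM, then 2.47 and 2.02 CPM. The netrin receptor gene was at least 2.49-fold higher at 6 h (adjusted p = 0.0373), from 7 counts, and at least 8.73-fold at 24 h (adjusted p = 0.000273). Tacr3 had no count at 0 h or 6 h and was at 1.85 and 2.28 CPM at 24 h, at least 7.86-fold higher than at 0 h (adjusted p = 0.00126). Its rise thus showed only after 6 h, at this depth. Tmem92 was at 0 and 0.226 CPM, 0.334 and 0.829 CPM, and 3.92 and 8.22 CPM. Its ratio at 24 h to 0 h was 33.7 (counting interval 9.1 to 282, adjusted p = 0.000122). Popdc3 was at 0.744 and 0 CPM, at 0, and at 1.96 and 3.03 CPM, a ratio of 14.1 (3.67 to 120, adjusted p = 0.0233). This was the weakest of the 9 calls, lost in 7 of 21 alternatives.

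Mecom stayed low until 6 h, at 0.744 and 0.679 CPM and then 0.668 and 0.414 CPM, and was at 9.48 and 9.23 CPM at 24 h (3.71 ± 0.34 against 0 h, adjusted p = 8.74e-06). Spz1 had no count at 0 h, was at 0.334 and 0 CPM at 6 h and at 3.61 and 4.17 CPM at 24 h, at least 14.8-fold above 0 h (adjusted p = 7.98e-05). Both transcription factor genes were thus near or at the floor until 6 h. Spesp1, with the most counts in the negative cells at 0 h, was at 3.72 and 2.83 CPM, 2.67 and 1.45 CPM, and 12.7 and 13.7 CPM (2.07 ± 0.25 at 24 h against 0 h, adjusted p = 0.000131). Slfn2 was at 0.744 and 0.226 CPM, at 0, and at 0.824 and 2.15 CPM. The Schlafen gene passed against 6 h (at least 5.12-fold higher, adjusted p = 0.0175) and not against 0 h (1.96 ± 0.80, adjusted p = 0.271).

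Replicate 1 of the tbGFP-negative cells at 0 h has the lowest total of all libraries, 2306870 counts. Without replicate 2 of that group, 6 of the 9 rises at 24 h and none of the 3 at 6 h passed, and without replicate 1 at 6 h none of the 3 passed. Of the multi-copy 2-cell families, 26 of 35 tested genes were higher at 24 h than at 0 h in the negative cells and none lower. Zscan4d was among them (4.85 ± 0.22, adjusted p = 7.49e-09). Of the 7 other 2-cell genes with few copies, 3 were higher and none lower, with a median of 2.15 (1.0 with bounds). From 6 h to 24 h, 1 of these 7 was higher and 1 lower. Dux did not follow the 10 genes from 6 h to 24 h in the negative cells (2.08 ± 0.601 and 1.1 ± 0.484 CPM, -0.90 ± 0.51, adjusted p = 0.348). Ddit4l, another 2-cell gene, fell in that step, from 71 ± 10.7 to 30.2 ± 1.29 CPM (-1.23 ± 0.21, adjusted p = 0.00202).

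The level in tbGFP-negative cells, as a percent of that in tbGFP-positive cells, had a median of 0.0856% over the 10 genes at 0 h, 0.228% at 6 h and 2.32% at 24 h. At 24 h it ran from 0.946% for Dcc to 4.41% for Spz1. Arg2 was at 3.98%, Mecom at 3.84%, Rdh1 at 2.88%, Tmem92 at 2.48%, Spesp1 at 2.16%, Slfn2 at 1.64%, Popdc3 at 1.37% and Tacr3 at 1.28%. The genes thus differed among themselves by several fold. The multi-copy families had a median of 2.24% at 24 h over 35 genes, and the other genes with few copies 3.97% over 7, from 0.743% for Sp110 to 118% for Zfp750, whose mean was no higher in tbGFP-positive than in tbGFP-negative cells. Whether tbGFP-positive cells carried over in the sort take part in these values was not tested.

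**Figure D3:**
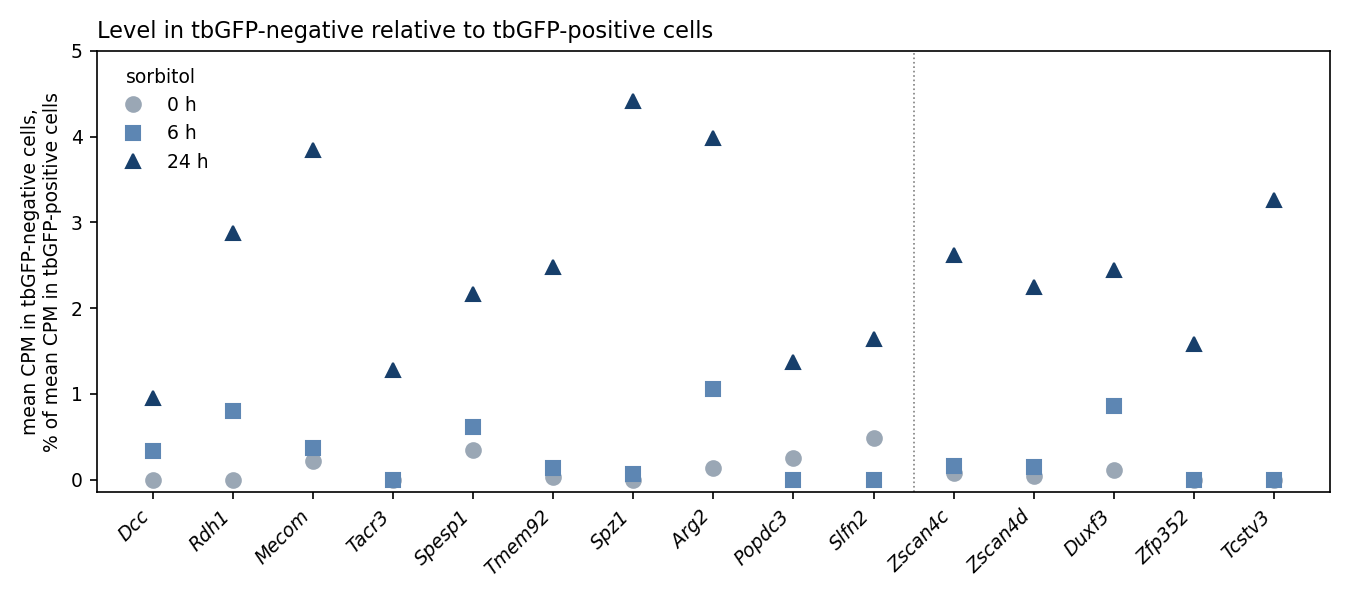
Mean CPM in tbGFP-negative cells as a percent of mean CPM in tbGFP-positive cells, for the 10 genes and, right of the dotted line, 5 other 2-cell genes, at 0, 6 and 24 h (marker shapes; 2 libraries per mean). At 24 h the 10 genes lie between 0.946% and 4.41%, and at 0 h none is above 0.484%. Ddit4l, also a 2-cell gene used for comparison, is not drawn. It was at 2.77% at 0 h, 38.8% at 6 h and 8.79% at 24 h.

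The sums of pluripotency markers were high in all groups, and those of some other cell types were above the 10 genes in tbGFP-negative cells. Of 14 naive pluripotency genes, 11 to 13 were at 5 CPM or more in each group, led by Pou5f1 or Tfcp2l1, with sums of 3260 to 4740 CPM. Single markers differed widely. In tbGFP-negative cells at 0 h Pou5f1 was at 1280 CPM, Esrrb at 16.4, Nanog at 12.7 and Zfp42 at 9.09 CPM. Of 12 germ cell and testis markers 0 to 2 reached 5 CPM, with sums of 1.86 to 39.1 CPM, highest in 1 tbGFP-positive library at 6 h. Of 10 neural markers 2 or 3 did, led by Tubb3 (50.6 to 201 CPM in sum). Of 10 muscle markers 1 to 3 did, led by Des (10.1 to 53.1 CPM). Of 10 lymphoid and blood markers 0 to 2 did (5.77 to 40 CPM). Between 6 and 9 of the germ cell markers and 1 to 6 of the blood markers had no count in a group. Trophectoderm markers summed to 59 to 250 CPM and primitive endoderm markers, mainly Lama1, to 123 to 310 CPM. In the tbGFP-negative libraries at 24 h the latter summed to 298 and 310 CPM, against 62.9 and 70.5 CPM for the 10 genes. The part of these markers in the changes above was not tested.

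In tbGFP-positive cells relatives of the 10 genes were far lower than these. The 10 were chosen for their height in that fraction, so this order is a description and carries no test. The 21 genes of the same families summed to 49.9 to 95.4 CPM in the positive libraries, where the 10 genes summed to 2070 to 3330 CPM. In tbGFP-negative cells at 0 h the order was the opposite, with 114 and 116 CPM for the relatives and 5.95 and 4.75 CPM for the 10 genes. Of the 21, 3 reached 5 CPM in tbGFP-positive cells at 0 h. They were Slfn9 (35.9 ± 4.06 CPM), Neo1, a netrin receptor related to Dcc (26.7 ± 2.21 CPM), and Slfn10-ps (9.12 ± 3.46 CPM). Slfn9 was at 82.1 ± 5.04 CPM in tbGFP-negative cells at 0 h, while Slfn2 was at 0.744 and 0.226 CPM there. The muscle gene Bves, related to Popdc3, was at 3.12 ± 2.33 CPM in tbGFP-positive cells at 0 h.

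What the counts of each gene stand for depended on where the deposited counting could place a read. Counts were nearly confined to bases that no other annotated transcript covers on either strand. Of 36767 transcripts without such bases, 47 had any count, and they held 0.0111% of all counts. Of 39991 transcripts with more than 500 such bases, 81% had counts. Of 597 transcripts with over 200 bases free on their own strand and none free on both, 2.18% had counts, against 77.4% of the 63562 with over 200 bases free on both. A gene's count therefore reads its transcripts' own bases, not its full length.

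**Figure D4:**
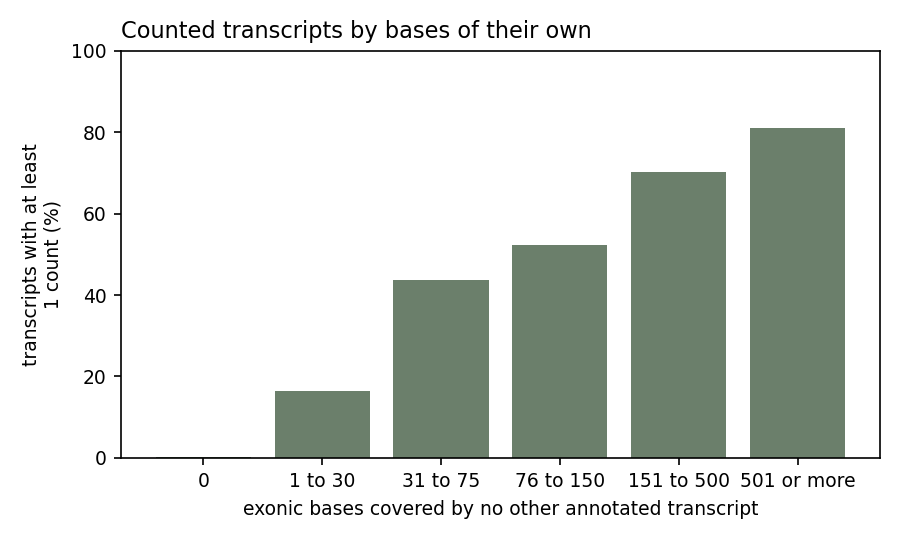
Percent of annotated transcripts with at least 1 count in the 12 libraries (bars), by the number of exonic bases that no other annotated transcript covers on either strand (x axis). The share rises from 0.128% of transcripts without such bases to 81% of those with more than 500.

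Slfn2, Spesp1, Spz1, Tacr3, Rdh1 and Arg2 have 1 annotated transcript each, so their counts read the whole gene, less shared bases. Rdh1 shares 464 exonic bases with Rdh16f1 on the same strand, which leaves 3466. Arg2 shares 285 with Vti1b and 116 with Gm48780 on the opposite strand, which leaves 1027. All Dcc counts fell on Dcc-202, whose 5444 own bases hold 60 coding ones, and all Tmem92 counts on Tmem92-201, whose 750 own bases are noncoding. Dcc-201 and Tmem92-202 have no own bases and Tmem92-203 has 1, so these counts could hardly see them. Dcc-203, an intron-retaining transcript, has 2848 own bases and held no count. Per kb of own bases, the levels in tbGFP-positive cells at 0 h ran from 657 ± 4.75 CPM per kb for Popdc3 and 483 ± 17.6 for Tmem92 to 60.3 ± 22.3 for Slfn2 and 42.2 ± 5.9 for Tacr3. On this scale Slfn2 and Dcc (67.7 ± 11.5 CPM per kb) did not differ beyond their spread.

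For Mecom and Popdc3 the counts read 1 transcript with a remote start. Mecom has 17 annotated transcripts, and Mecom-208, annotated as subject to nonsense-mediated decay, took 99.4% to 100% of its counts in the 6 tbGFP-positive libraries. Its 935 own bases are its first exon (30547882 to 30548008) and its second (30546432 to 30547239, chromosome 3, minus strand, GRCm38). All of them are noncoding, and its start lies 38.2 kb upstream of the nearest other Mecom start. In the tbGFP-negative libraries at 24 h Mecom-208 took 89.1% (82 of 92 counts, exact binomial 95% interval 80.9 to 94.7) and 80.8% (59 of 73, 69.9 to 89.1). Mecom-216, an intron-retaining transcript, took 8.7% and 19.2% there, and 0.412% or less in each positive library. Of the 11 Mecom transcripts annotated as protein-coding, 9 have 96 own bases or fewer, so these counts could hardly see them. The other two, Mecom-202 and Mecom-214, have 301 and 369 and held 0 and 2 counts in the 12 libraries.

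Popdc3-203 took 97% to 100% of Popdc3 counts in the tbGFP-positive libraries, and 18 of 24 (75%, 53.3 to 90.2) in replicate 2 of the negative cells at 24 h, the only negative library with at least 20 counts. Its 230 own bases are its first exon (45178098 to 45178192) and its second (45225437 to 45225571, chromosome 10, plus strand), all noncoding. It starts 111 kb upstream of Popdc3-201, whose 387 own bases held 61 counts in all 12 libraries. Popdc3-202 has no own bases, so these counts could hardly see it. In tbGFP-positive cells the changes given above for Mecom and Popdc3 are therefore nearly those of the first 2 exons of Mecom-208 and Popdc3-203. In tbGFP-negative cells part of the counts came from their other transcripts.

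**Figure D5:**
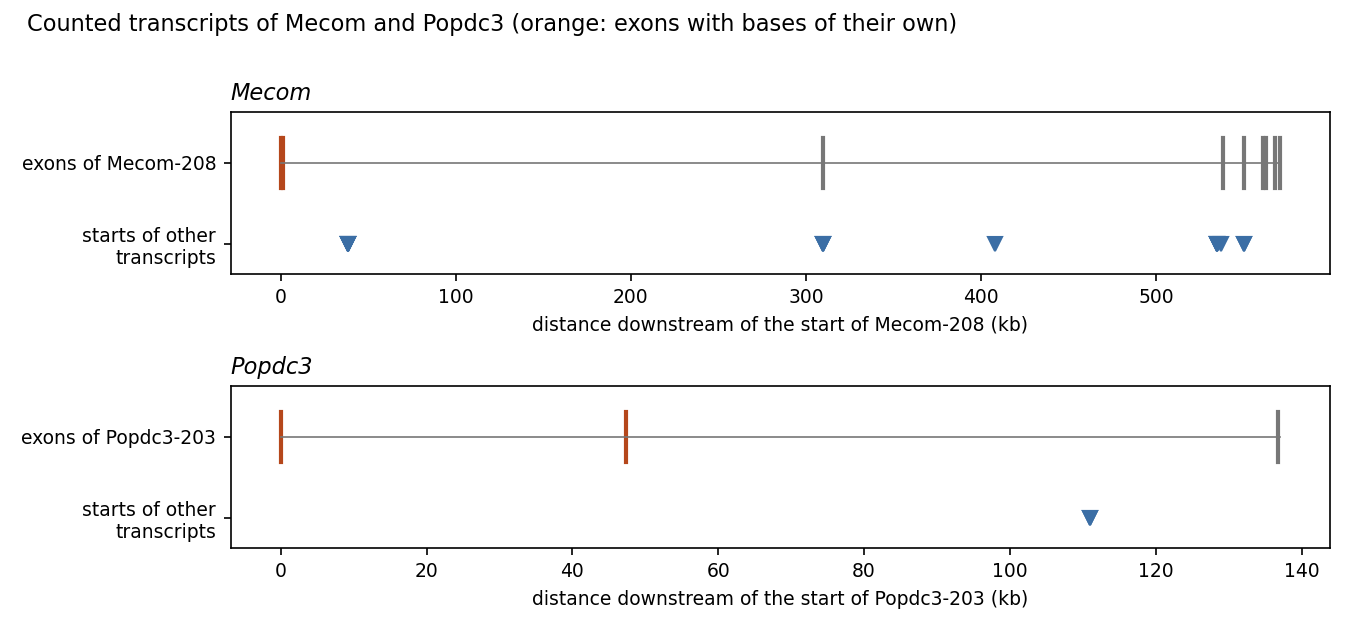
Exons of Mecom-208 and Popdc3-203 (vertical ticks at their midpoints, orange where the exon has bases of its own, grey where it has none) and starts of the other annotated transcripts of each gene (blue), by distance from the start of the counted transcript in kb. The nearest other start lies 38.2 kb downstream in Mecom and 111 kb downstream in Popdc3; the width of a tick is not to scale.

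The label of single-copy genes was checked in the GENCODE M21 transcripts by windows of 50 bases found, on either strand, in a transcript of another gene. Mecom, Spesp1, Spz1 and Tacr3 shared none, Dcc 0.341% and Tmem92 2.01% of their windows. Slfn2 shared 4.27%, all with Slfn4, Rdh1 15.6%, mostly with Rdh16f1 (11.7%), and Arg2 21.2%, mostly with Vti1b (17.1%). The median over the 10 was 1.18%, against 49.6% over 37 genes of multi-copy 2-cell families and 3.4% over the 7 other genes. Vti1b and Rdh16f1 are the genes whose exons overlap those of Arg2 and Rdh1 at the same place in the genome, so a shared window with them need not be a second copy. Windows of Rdh1 were found in transcripts of 165 other genes in all, and windows of Dcc in those of 106. Where in the Rdh1 and Dcc transcripts these repeated windows lie was not examined.

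Popdc3 shared 6.39% of its windows, and they lay in bases 1 to 96 of Popdc3-203, which take in the whole first exon. A window of that stretch was found in transcripts of 116 other genes. On the same strand and within the first 200 bases, where any match in a shorter transcript must lie, it was held by 103. Of the 92 of these that were tested, 72 were higher in tbGFP-positive than in tbGFP-negative cells at 0 h, with a median log2 fold change of 8.09, and none was lower, where 6.66% of all genes tested were higher. At 6 h 79 of the 92 were higher and at 24 h 73, with 6.92% and 5.35% of all genes. The following 30 bases, 27 to 56 of the transcript, occur in transcripts of 178 other genes. They are shown because, among windows of 30 bases within bases 1 to 96, they occur in the most other genes. Counted exons of genes other than Popdc3 were not searched in this way.
Popdc3: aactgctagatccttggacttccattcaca
Popdc3-203 is thus not single-copy in its first counted exon, and shared no window of 50 bases past base 96. The exon's 95 bases are 95 of the 230 own bases of Popdc3-203. The other Popdc3 transcripts and the protein were not compared with those of other genes. How the deposited counting treated reads that fit several places is not given in the sources used here.

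None of the promoter motifs searched for was found in more than 1 of the genes whose window could be read. RefSeq (GRCm38.p6) gave promoter sequences for 6 of the 10 genes, and in 5 of them the start lay within 100 bases of that of the counted transcript. The 250 bases before those 5 starts were searched on both strands. The palindromic Dux motif was found in none of the 5 and in 0.0304% of all 32851 promoters. So rare a motif is unlikely in any 5 promoters, so nothing is read from its absence. The nuclear receptor motif AAGGTCA was found in none and in 4.08% of all, and the bicoid-type homeobox motif TAATCC in 1 (Rdh1) and in 6.25% of all. The TATA box TATAAA was found in 1 (Tacr3) and in 12.4% of all. None of these motifs holds another.

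The sequences of 4 of these promoters are shown, 5′ to 3′ toward the gene and up to the start, so that the letters behind those counts can be seen; the capitals mark the TATA box. They are chr3:134828757-134829006 (plus strand) for Tacr3, chr13:92576233-92576482 (minus strand) for Spz1, chr11:83064862-83065111 (plus strand) for Slfn2 and chr9:62282209-62282429 (minus strand) for Spesp1, without 29 bases that lie inside its counted transcript.
Tacr3: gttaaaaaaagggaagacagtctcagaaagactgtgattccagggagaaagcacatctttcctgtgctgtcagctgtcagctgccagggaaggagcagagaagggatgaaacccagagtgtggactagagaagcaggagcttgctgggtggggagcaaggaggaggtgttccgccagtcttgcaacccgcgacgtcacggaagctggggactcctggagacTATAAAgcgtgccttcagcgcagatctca
Spz1: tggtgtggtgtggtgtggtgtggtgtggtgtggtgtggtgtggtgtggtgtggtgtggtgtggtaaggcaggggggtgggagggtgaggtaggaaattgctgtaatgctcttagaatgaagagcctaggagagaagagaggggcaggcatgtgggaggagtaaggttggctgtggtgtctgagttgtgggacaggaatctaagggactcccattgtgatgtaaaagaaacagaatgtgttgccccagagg
Slfn2: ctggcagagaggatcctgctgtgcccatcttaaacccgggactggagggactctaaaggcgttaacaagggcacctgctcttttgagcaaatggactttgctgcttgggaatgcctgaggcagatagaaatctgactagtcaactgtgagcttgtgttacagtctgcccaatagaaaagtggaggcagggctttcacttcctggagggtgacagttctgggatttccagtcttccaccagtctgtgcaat
Spesp1: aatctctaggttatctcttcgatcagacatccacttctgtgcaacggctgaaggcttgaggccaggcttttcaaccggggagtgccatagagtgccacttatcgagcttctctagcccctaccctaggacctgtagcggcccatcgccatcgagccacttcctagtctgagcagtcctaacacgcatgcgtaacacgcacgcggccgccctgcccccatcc
Only Tacr3, 1 of the genes that fell by 6 h and rose by 24 h in tbGFP-positive cells, has the TATA box, and Spesp1 and Mecom, which moved in the same steps, have none in their windows. A match is a description of letters and not of binding, and the Mecom window lies 38.2 kb or more from the counted start.

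Likeness to the 10 genes was measured as the root mean square difference of centred log2 CPM over the 12 libraries from the median profile of the 10. The nearest other genes were Gm2035 (0.358), Gm20234 (0.363), F730035P03Rik (0.369), Gm8607 (0.371) and Gm38642 (0.374). The 10 genes themselves ranked from 20 (Tacr3, 0.511) to 209 (Arg2, 1.0) of 19384, so each of them lay farther from their own median than these genes did. Gm2035 was at 1010 ± 71.4 CPM at 0 h, 922 ± 33.3 CPM at 6 h and 1020 ± 116 CPM at 24 h in tbGFP-positive cells, and at 1.07 ± 0.0693, 1.83 ± 0.246 and 28.1 ± 0.123 CPM in tbGFP-negative cells. The profile is set mostly by the gap between fractions, which the choice of genes used.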

How the data were processed

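RNA was measured in 12 libraries, 6 groups of 2, taken from GEO's labels. Per the labels' protocols, the library kit for total RNA keeps the strand. FastQC, HISAT2, featureCounts, DESeq2 and the build mm10 are named in the submitters' processing notes, without versions or settings. Per the file headers and values, the authors deposited whole-number counts, unnormalized, for each of 142446 Ensembl transcripts; the design assumed counts per gene. Counts were summed per gene with GENCODE M21 by transcript identifier (141536 matched; 910, with 0.0606% to 0.0903% of counts, did not and were left out; 0 columns were not mapped).

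The filter (10 or more counts in 2 or more libraries) left 19384 genes, tested with edgeR 4.0.16 (TMM, robust quasi-likelihood test, a mean per group, common dispersion 0.208, Benjamini-Hochberg over all genes tested). In simulated counts for 6 h against 0 h in tbGFP-positive cells (16347 genes), the test found 42% of the 4-fold and 3% of the 2-fold changes, so smaller changes can go unseen. For 24 h against 0 h in tbGFP-negative cells (16931 genes) it was 41% and 7%. Changes were planted in genes above a minimum mean count, with the spread typical of genes at their level. These shares do not give the sensitivity for the 10 genes. Their SEs for 6 h against 0 h in tbGFP-positive cells ran from 0.19 to 0.36, and most had few counts in tbGFP-negative cells. CPM are counts scaled to TMM-adjusted library totals. Folds against 0 counts use a floor of 3 counts over the group, and intervals are 95% and cover counting error only, since no molecular identifiers were used. Bases covered by 1 transcript and windows of 50 bases were computed from the GENCODE M21 annotation.

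Alternatives were other scalings, DESeq2 1.42.0, no filter, other sets of libraries and a replicate block. Replicate numbers were not treated as pairs. The 10 genes and all gene lists were chosen with earlier results of these data known. Named genes are the 10, 6 other 2-cell genes, the 5 genes nearest to their median profile, and examples of listed genes.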

Additional observations from a re-analysis of the deposited data

Results flagged for a closer look

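In 8 of the 10 comparisons below the change is against 0 h. They stand here because both tbGFP-positive libraries of the later time lay below both of the earlier one, while both tbGFP-negative libraries lay above; the difference between the fractions was not tested. Over all genes tested, the same pattern held for 3.56% at 6 h against 0 h, 3.22% at 24 h against 0 h and 2.63% at 24 h against 6 h. At 6 h against 0 h this held for Dcc (log2 fold change -0.90 in tbGFP-positive cells; 0 to 0.645 CPM in tbGFP-negative cells) and Rdh1 (-1.31; 0 to 1.46 CPM). At 24 h against 0 h it held for Dcc (-0.63; 0 to 2.25 CPM), Rdh1 (-0.95; 0 to 6.75 CPM), Tmem92 (-0.57; 0.113 to 6.07 CPM), Spz1 (-0.94; 0 to 3.89 CPM), Mecom (-0.43; 0.711 to 9.35 CPM) and Spesp1 (-0.64; 3.27 to 13.2 CPM). At 24 h against 6 h it held for Tmem92 (-0.88; 0.581 to 6.07 CPM) and Spz1 (-1.44; 0.167 to 3.89 CPM). None of the falls in tbGFP-positive cells at 24 h against 0 h passed edgeR's test over all genes, where 7 of the 10 genes had an unadjusted p below 0.05.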

How the results depend on the processing

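In tbGFP-positive cells, 5 genes fell to 6 h, and 1 with only the libraries of the fraction in the fit; leaving out 1 library at a time gave 2 to 6. At 24 h against 0 h, where none was called, 1 was higher and 3 lower with DESeq2's Wald test, 3 lower without the filter, and 1 higher and 4 lower without both tbGFP-positive libraries at 6 h; leaving out 1 library gave 0 to 1 higher and 0 to 4 lower. From 6 h to 24 h, 4 higher became 0 with only the libraries of the fraction, and 2 lower became 1 there and with library sizes without 2-cell genes; leaving out 1 library gave 0 to 5 higher and 0 to 2 lower. In tbGFP-negative cells the 3 rises at 6 h became 1 with library totals alone, and 0 to 3 without 1 library; those at 24 h stayed at 6 to 9 against 0 h and 7 to 10 against 6 h. That fit, with fewer samples, kept the fall of Spesp1 to 6 h and of Spz1 from 6 h to 24 h. Tacr3 at 24 h against 0 h in tbGFP-positive cells (0.02) was -0.011 with DESeq2 size factors, -0.01 with DESeq2's test, -0.028 without the filter, -0.00013 with only the fraction, -0.025 without both tbGFP-positive libraries at 6 h, -0.051 with library sizes without 2-cell genes, and -0.16 to 0.13 with single libraries left out. So left out, Slfn2 was at -0.11 to 0.66 at 6 h and at -0.53 to 0.25 at 24 h against 0 h. Scaling by library totals moved the median of all genes from 6 h to 24 h in tbGFP-negative cells from 0.16 to 0.56, with the 10 genes' median at 4.1. Windows of 100 bases gave a median shared share of 0%, and a minimum of 50 counts left Popdc3-203 at 97% or more. With the replicate block, 1 gene in place of 2 fell from 6 h to 24 h in tbGFP-positive cells; same-numbered libraries did not deviate together (correlations of -0.0342 to 0.0145 over 15 pairs), so the numbers were not taken as pairs. Depth limits the tbGFP-negative cells, where 3 counts are 0.339 and 1.12 CPM at 0 h.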

Other observations

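The stretch at the start of the counted Popdc3 transcript is shared with transcripts of genes that were themselves high in tbGFP-positive cells. Of the 103 genes that hold a 50-base window of it on the same strand within their first 200 bases, 92 were tested. By annotation 39 of the 103 are miRNA genes, 24 are protein-coding and 21 are lincRNA genes. Transcript lengths were not taken into account, and any match in a transcript shorter than 200 bases lies within that limit. In tbGFP-positive against tbGFP-negative cells, 79 of the 92 were higher at 6 h, with a median log2 fold change of 7.4 (6.92% and -0.07 over all genes), and 73 at 24 h, with a median of 5.53 (5.35% and -0.05). In tbGFP-negative cells 30 of the 92 rose from 0 h to 24 h and none fell, with a median of 2.66, against 2.7% higher and a median of 0.23 over all genes. Within tbGFP-positive cells 4 of the 92 were lower at 6 h than at 0 h and none higher by edgeR's test, a share near the 3.76% of all genes called lower. These genes share sequence, so reads from 1 of them could be counted for another and they are not independent of each other or of Popdc3. The genes were found by sequence and not by their values, but the search began from a gene chosen for its height in tbGFP-positive cells. No file used here names a repeat in this stretch.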
